A study of Mus musculus with 2 samples.

Results

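Chromatin remodellers and histone-modifying enzymes were described as 84 genes, with 86 probes, of the 16446 genes named on a mouse oligonucleotide array. The genes were taken by a rule on their symbols, chosen with earlier results of these data known: the Smarc and Chd remodellers, histone deacetylases and sirtuins, the corepressor Ncor1, Suv and Setd histone methyltransferases, Jarid, Jmjd and Kdm jumonji proteins and demethylases, Dnmt DNA methyltransferases, Mbd methyl-CpG binding proteins and Cbx chromobox proteins. Setdb1, Cbx3 and Cbx5 match those symbols and were left out. The classes follow the symbols too, so a member need not have the activity that its class is named for. Of the 84 genes, 18 now carry another symbol, which is given in brackets for those named below.

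Hippocampal RNA of mice was hybridised on 2 two-colour arrays. The first mutant pool was AtrxdE2+TMPyP4, from mice with the AtrxΔE2 allele of Atrx that received TMPyP4 intraperitoneally at 30 mg/kg, with 2 weekly injections over postnatal days 30 to 90. The second was AtrxdE2, from mice with the same allele, and the comparator on both arrays was wild type (WT). Each RNA was a pool of 5 mice, labelled with Cy3 for the mutant and Cy5 for WT, so each group is 1 array, no test between groups could be made and no p-value is given. Dyes were not swapped, so dye and genotype cannot be told apart within an array. The labels do not say what the AtrxdE2 mice without TMPyP4 were injected with, whether both arrays carried 1 WT pool, or the sex and the age at sampling. A pool hides the spread between mice, and in whole tissue fewer cells of a type and less RNA per cell cannot be told apart.

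ATRX, the protein encoded by Atrx, is itself a SNF2-type chromatin remodeller that helps to place histone H3.3 in heterochromatin and repeats. TMPyP4 is a porphyrin that binds G-quadruplexes, DNA structures formed by runs of guanine. Many of the proteins described here act on the same substrate, chromatin, and some act elsewhere, as given below. Remodellers use ATP to slide, evict or exchange nucleosomes, histone deacetylases and lysine methyltransferases or demethylases write and erase marks on histone tails, and DNA methyltransferases set CpG methylation that methyl-CpG binding proteins read. In hippocampal neurons several of them are known for activity-dependent transcription and memory, and mutations of several cause neurodevelopmental disorders in humans.

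As TMPyP4 binds G-quadruplexes, the promoters of members far from 0 in the comparison of AtrxdE2+TMPyP4 with AtrxdE2 are shown first, 3 of them lower and 2 higher in AtrxdE2+TMPyP4. Each is the RefSeq window of assembly GRCm38.p6 from 250 bases before to 50 bases after the start, on the gene's strand, and capitals mark runs of at least 3 guanines or 3 cytosines. The windows are Dnmt1 at chr9:20952574-20952873 on the minus strand, Hdac6 at chrX:7947840-7948139 on the minus strand, Setd1a at chr7:127777139-127777438, Hdac2 at chr10:36974294-36974593 and Jmjd1c at chr10:67126838-67127137, the last 3 on the plus strand.
Dnmt1: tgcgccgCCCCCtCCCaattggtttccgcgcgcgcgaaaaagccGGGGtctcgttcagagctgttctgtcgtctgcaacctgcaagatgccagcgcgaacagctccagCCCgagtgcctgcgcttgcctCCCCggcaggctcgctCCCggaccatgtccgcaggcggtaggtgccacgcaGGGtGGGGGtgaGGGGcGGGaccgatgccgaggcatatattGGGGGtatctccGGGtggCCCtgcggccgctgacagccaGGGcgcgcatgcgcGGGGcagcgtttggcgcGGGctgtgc
Hdac6: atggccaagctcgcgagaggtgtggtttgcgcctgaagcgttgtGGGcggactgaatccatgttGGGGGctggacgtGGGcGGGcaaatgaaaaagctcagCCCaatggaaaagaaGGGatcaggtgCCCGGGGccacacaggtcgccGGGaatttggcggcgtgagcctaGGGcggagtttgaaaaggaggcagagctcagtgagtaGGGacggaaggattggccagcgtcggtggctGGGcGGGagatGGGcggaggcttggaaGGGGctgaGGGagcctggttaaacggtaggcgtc
Setd1a: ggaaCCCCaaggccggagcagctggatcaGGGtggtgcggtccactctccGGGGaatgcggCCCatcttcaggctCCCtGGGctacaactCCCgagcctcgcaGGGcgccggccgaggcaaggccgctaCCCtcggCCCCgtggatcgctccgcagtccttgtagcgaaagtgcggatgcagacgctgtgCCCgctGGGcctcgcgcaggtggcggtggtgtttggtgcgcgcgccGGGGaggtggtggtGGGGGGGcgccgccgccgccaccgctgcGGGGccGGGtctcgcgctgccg
Hdac2: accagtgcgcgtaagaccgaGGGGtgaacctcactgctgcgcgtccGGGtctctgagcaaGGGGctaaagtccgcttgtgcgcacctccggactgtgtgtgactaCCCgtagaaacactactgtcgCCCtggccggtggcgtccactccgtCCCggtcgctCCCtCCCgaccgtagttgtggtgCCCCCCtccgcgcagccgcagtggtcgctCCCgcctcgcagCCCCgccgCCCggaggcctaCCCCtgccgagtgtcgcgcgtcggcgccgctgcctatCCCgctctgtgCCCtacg
Jmjd1c: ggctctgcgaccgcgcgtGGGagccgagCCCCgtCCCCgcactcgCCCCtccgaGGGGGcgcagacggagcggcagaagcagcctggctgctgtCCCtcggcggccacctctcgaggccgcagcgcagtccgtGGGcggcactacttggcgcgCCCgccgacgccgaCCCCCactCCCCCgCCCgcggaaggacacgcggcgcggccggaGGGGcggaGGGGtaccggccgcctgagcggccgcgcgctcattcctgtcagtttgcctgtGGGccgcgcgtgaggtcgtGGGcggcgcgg
The motif searched was GGG, with 4 such runs of at least 3 G separated by loops of 1 to 7 N (any base), on both strands. Among these windows it is complete in that of Dnmt1, which also holds 33 CpG. Dnmt1 has 3 windows in the promoter table, with a median of 12 CpG, and one with the motif is shown, while Jmjd1c has 2, of which the first is shown. It was not matched in the windows of Hdac6, Setd1a, Hdac2 and Jmjd1c, although all of them hold runs of G and C. Ncor1, with 2 windows, and Smarca2, with 1, were also lower by 0.5 or more, and their windows, not printed here, did not match it either. Smarce1, also higher by 0.5 or more, had no promoter entry and was not searched. Over the members with a promoter entry, 24 of 68 genes held the motif, which is 35.3%, against 29.9% of the named measured genes and 20.4% of all genes in the promoter table. The members' windows had a median of 22 CpG, the named measured genes' 18 and the whole table's 7. The 23 measured members with the motif had a median log2 difference between AtrxdE2+TMPyP4 and AtrxdE2 of -0.15, and 18 of them lay below 0, where 47.3% of all genes did. For the 42 measured members with a promoter entry and no motif the median was -0.016, with 23 below 0. The 47.3% covers genes with and without the motif, and these medians and counts are those after normexp and loess. With the local background the differences of Dnmt1, Setd3 and Smarca1, which hold the motif, turned to 0.19, 1.16 and 0.26. Median centring turned those of Cbx8, Hdac11, Hdac4 and Setd3 to 0.11, 0.13, 0.067 and 0.23. The other members with the motif kept their sign under both settings. A part of the motif in the differences was not tested.

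Signals below are scanner intensities above the mean of the array's blank spots, before normalization. Ratios are log2 of mutant over WT after normexp background correction with an offset of 50 and loess within each array. The median probe signal was 79.0 for AtrxdE2+TMPyP4 against 36.0 for WT on the array of the treated mice, and 64.6 for AtrxdE2 against 42.2 for WT on the other, so a raw ratio above 0 was the rule on both arrays. A gene counted as measured when its probe exceeded the blank mean by 2 SD in each of 4 channels, which held for 13630 named genes. Of the 84 members, 81 were measured. The 3 others are Dnmt3l, a cofactor of germline DNA methylation, Jmjd2d (Kdm4d), and Mbd3l2. Dnmt3l had signals of 6.85 in AtrxdE2+TMPyP4 against 1.49 in WT, where WT was not above background (at least 1.02-fold), and 9.91 in AtrxdE2 against 6.23 in WT. Jmjd2d was above background only in AtrxdE2+TMPyP4 (at least 1.01-fold over WT), and Mbd3l2 only in the WT channel of the AtrxdE2 array.

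Differences were described by 2 sizes, 2-fold and 0.5 on the log2 scale. No measured member differed 2-fold between AtrxdE2+TMPyP4 and WT, where 0.191% of all measured genes did. No member did so between AtrxdE2 and WT, where 0.0293% of genes did, or between AtrxdE2+TMPyP4 and AtrxdE2, where 0.315% did. At 0.5 or more, 0 of the 81 members differed between AtrxdE2+TMPyP4 and WT (2.27% of all genes) and 1, Ncor1, between AtrxdE2 and WT (2.19%). Between AtrxdE2+TMPyP4 and AtrxdE2, whose value is the difference of the ratios of both arrays, 8 members differed by 0.5 or more, where 5.63% of all genes did. Of these, 3 were higher in AtrxdE2+TMPyP4 (3.61% of all genes) and 5 were lower (2.02%). Around each of the 8, the 500 named genes nearest in signal had an SD between 0.23 and 0.31 in this difference. With plain subtraction of the blank mean and no offset, 21 members differed by that much, where 22.5% of all genes did. Such a difference was held by 20 members in the authors' deposited table, where 22.8% of all genes held one. Ranks among the 81 members given below are those after normexp and loess. In the authors' deposited table the lowest members were Cbx2 in AtrxdE2+TMPyP4 over WT and over AtrxdE2, at -1.10 and -1.64, and Jmjd2a in AtrxdE2 over WT, at -0.71. The highest members in the authors' deposited table were Suv420h1 in AtrxdE2+TMPyP4 over WT, at 0.65, Ncor1 in AtrxdE2 over WT, at 0.98, and Jmjd1c in AtrxdE2+TMPyP4 over AtrxdE2, at 0.93.

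**Figure D1:**
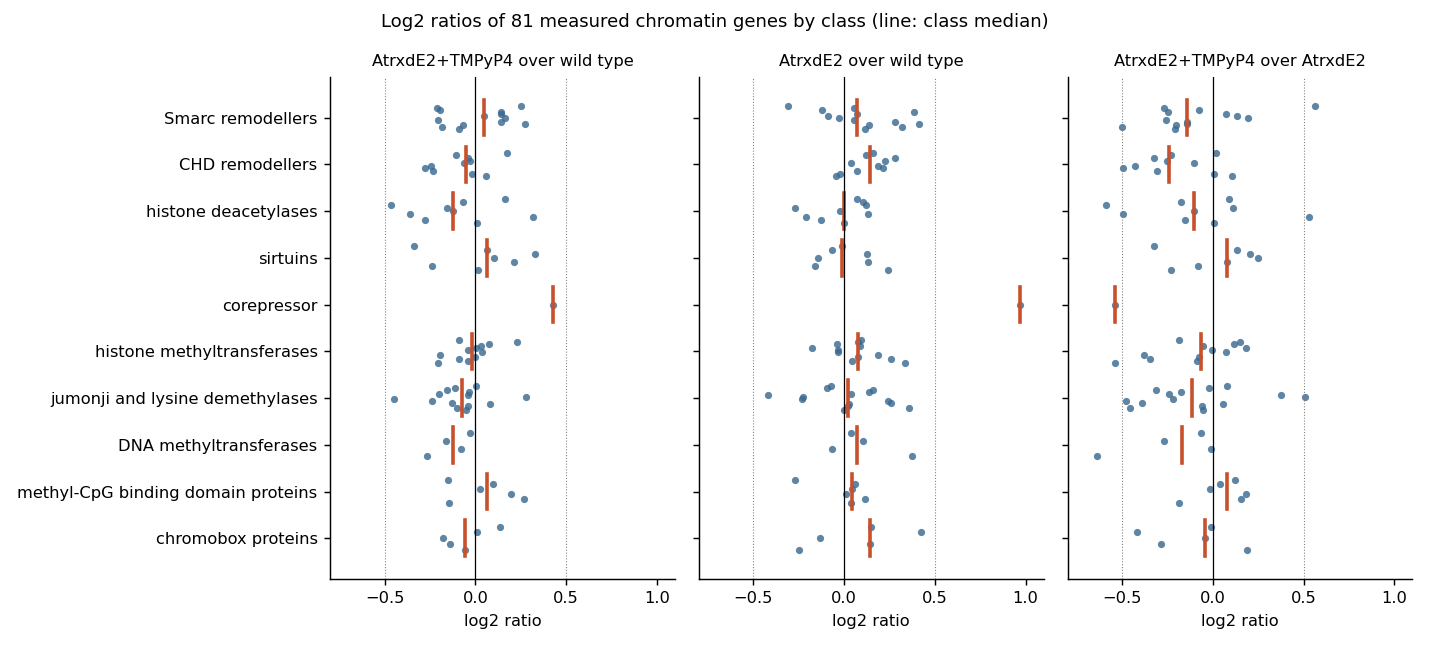
Log2 ratios (horizontal axis) of the 81 measured members by class (vertical axis) for AtrxdE2+TMPyP4 over WT, AtrxdE2 over WT, and AtrxdE2+TMPyP4 over AtrxdE2. Each point is 1 gene on 1 array per group, red lines are class medians and dotted lines mark log2 0.5. Most points lie within the dotted lines, and the corepressor Ncor1 stands at 0.97 in AtrxdE2 over WT.

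As a list, the members had a median below 0 in AtrxdE2+TMPyP4 and above 0 in AtrxdE2. In AtrxdE2+TMPyP4 over WT, 32 of 81 members lay above 0, where 52.8% of all genes did, with a median of -0.042 and an SD of 0.18 among members (all genes 0.0095). This shift depends on the scaling: with each array centred on its median in place of loess, 59 of 81 members lay above 0 with a median of 0.19, against 0.18 for all genes. In AtrxdE2 over WT, 54 members lay above 0, where 49.3% of all genes did, with a median of 0.060 and an SD of 0.20 (all genes -0.0028). Median centring there gave 62 members above 0 with a median of 0.17, against 0.066 for all genes. Gene by gene, 34 members (42.0%) were below 0 in AtrxdE2+TMPyP4 and above 0 in AtrxdE2, a pattern held by 21.6% of all genes. The opposite pattern was held by 12 members (14.8%) and 25.1% of all genes. A further 20 members were above 0 in both and 15 below 0 in both. The pattern also depends on the scaling: with median centring 12 members (14.8%) were below 0 in AtrxdE2+TMPyP4 and above 0 in AtrxdE2, as were 1635 of all 13630 genes, and with the local background 25 (30.9%) were, against 22.8% of all genes. Between AtrxdE2+TMPyP4 and AtrxdE2, 53 of 81 members lay below 0, where 47.3% of all genes did, with a median of -0.081 and an SD of 0.26 (all genes 0.015). With median centring that median was -0.0077 for members and 0.061 for all genes.

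**Figure D2:**
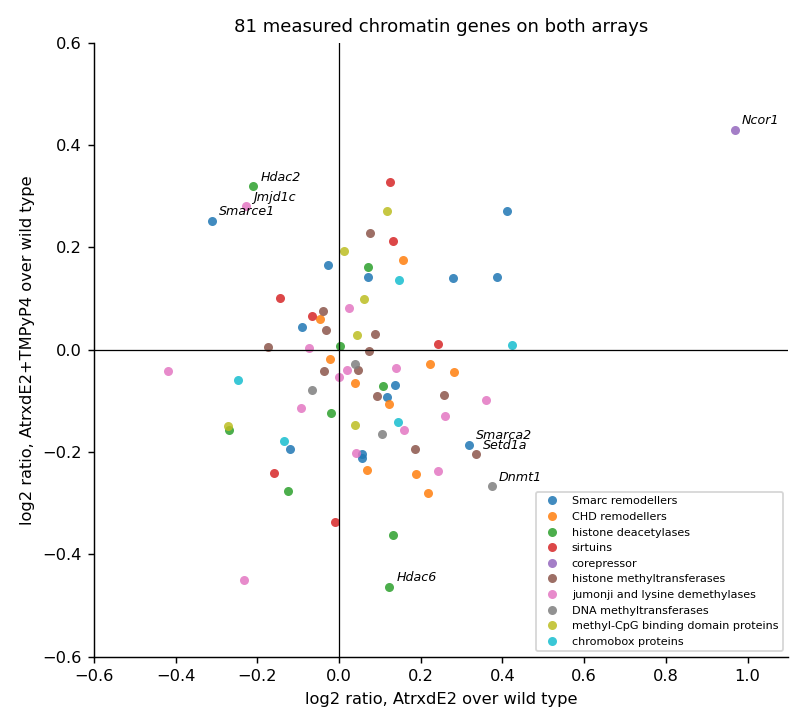
Log2 ratio of AtrxdE2+TMPyP4 over WT (vertical axis) against log2 ratio of AtrxdE2 over WT (horizontal axis) for the 81 measured members, coloured by class, 1 point per gene. The members at least 0.5 apart between the mutant groups are named. The lower right quadrant holds 34 members and the upper left 12.

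The Smarc genes encode SWI/SNF and ISWI remodellers and relatives. Smarca4 and Smarca2, whose proteins are known as BRG1 and BRM, are the alternative ATPases of the SWI/SNF (BAF) complex. Smarca4 had signals of 2584 in AtrxdE2+TMPyP4 against 915 in WT, and 2858 in AtrxdE2 against 1380.5 in WT. It was the highest of its class on both arrays, with ratios of 0.27 in AtrxdE2+TMPyP4 and 0.41 in AtrxdE2. Smarca2 had signals of 1959 in AtrxdE2+TMPyP4 against 966 in WT, and 1563 in AtrxdE2 against 794 in WT. Its ratios were -0.19 in AtrxdE2+TMPyP4 and 0.32 in AtrxdE2, a difference of -0.50. The direction turned with the processing: the difference was 0.35 with the local background and -0.022 where the mutant channels were compared directly, and the ratio in AtrxdE2+TMPyP4 was 0.65 with the local background and 0.38 with median centring. The raw ratio of Smarca2 hardly differed between the arrays, at 1.02 and 0.98 on the log2 scale, while that of the median gene was 1.17 in AtrxdE2+TMPyP4 and 0.63 in AtrxdE2. Smarce1, a DNA-binding BAF subunit, went the other way, with signals of 598 in AtrxdE2+TMPyP4 against 218 in WT, and 288 in AtrxdE2 against 241 in WT. Its ratios were 0.25 in AtrxdE2+TMPyP4 and -0.31 in AtrxdE2, and the difference of 0.56 was the highest of the 81 members. The ISWI ATPase Smarca5 was above 0 in both groups, at 0.14 in AtrxdE2+TMPyP4 and 0.28 in AtrxdE2. The core subunits Smarcb1, Smarcc1 and Smarcc2 had differences between the mutant groups of 0.13, 0.071 and -0.25. Smarcd3, a BAF subunit, was the lowest of the class in AtrxdE2+TMPyP4 over WT, at -0.21, with signals of 1108 in AtrxdE2+TMPyP4 against 565 in WT, and 1218 in AtrxdE2 against 746 in WT. Over the 13 Smarc genes, all measured, the median difference was -0.14 and 9 lay below 0 (47.3% of all genes). With the local background the median was 0.10.

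The CHD family, whose Chd3, Chd4 and Chd5 are ATPases of the deacetylase complex NuRD, was below 0 for 8 of 10 genes in AtrxdE2+TMPyP4 (47.2% of all genes), with a median of -0.054. With median centring 7 of 10 were above 0 and the median was 0.11, where the median of all genes was 0.18. In AtrxdE2, 8 of 10 were above 0 (49.3% of all genes), with a median of 0.14. Between the mutant groups 7 of 10 were below 0 (47.3% of all genes), with a median of -0.24 that was -0.17 with median centring. Chd3 was the lowest, at -0.497, just short of the size limit, where Smarca2 at -0.502 was just past it. Its bright probe had signals of 9212 in AtrxdE2+TMPyP4 against 4643 in WT, and 9614 in AtrxdE2 against 5249 in WT, and differed by -0.55. Its dim probe had 104 in AtrxdE2+TMPyP4 against 70.4 in WT, and 35.7 in AtrxdE2 against 16.7 in WT, and differed by -0.45. Chd4 had signals of 1585 in AtrxdE2+TMPyP4 against 818 in WT, and 1562 in AtrxdE2 against 873 in WT, with ratios of -0.24 in AtrxdE2+TMPyP4 and 0.19 in AtrxdE2. Chd7, the gene mutated in human CHARGE syndrome, was at -0.043 in AtrxdE2+TMPyP4 and at 0.28 in AtrxdE2, the highest ratio of the class there. Its signals were 159 in AtrxdE2+TMPyP4 against 78.3 in WT, and 278 in AtrxdE2 against 140.1 in WT. Chd8, a gene linked to autism in humans, had a difference of -0.29 for its bright probe and -0.17 for its dim one. Chd1, which binds methylated histone H3 at active promoters, was the highest of the class in the difference, at 0.11, and the lowest in AtrxdE2 over WT, at -0.045, with signals of 123 in AtrxdE2+TMPyP4 against 54.3 in WT, and 87.5 in AtrxdE2 against 61.4 in WT. Chd9 was the highest in AtrxdE2+TMPyP4 over WT, at 0.18, and was at 0.16 in AtrxdE2, with signals of 117 in AtrxdE2+TMPyP4 against 44.3 in WT, and 57.8 in AtrxdE2 against 29.3 in WT.

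Ncor1, the scaffold through which nuclear receptors recruit the deacetylase HDAC3, had the highest ratio of the 81 members on both arrays. Its signals were 2899 in AtrxdE2+TMPyP4 against 916 in WT, and 2983 in AtrxdE2 against 961 in WT. The mutant channel was about as far above WT on both arrays, with raw log2 ratios of 1.66 and 1.63. After loess the ratios were 0.43 in AtrxdE2+TMPyP4 and 0.97 in AtrxdE2, and their difference was -0.54. With the local background subtracted, the difference turned to 0.76, and with median centring it was -0.22, so its direction rests on the processing. The ratio over WT was above 0 in both groups under each setting tried, between 0.43 and 1.46 in AtrxdE2+TMPyP4 and between 0.70 and 1.23 in AtrxdE2.

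The zinc-dependent histone deacetylases lay on both sides of 0, with 4 of 9 above 0 in AtrxdE2+TMPyP4 over AtrxdE2 (52.7% of all genes) and a median of -0.10, which was 0.067 with median centring. Hdac6, a mostly cytoplasmic enzyme that deacetylates tubulin, had signals of 822 in AtrxdE2+TMPyP4 against 512 in WT, and 937 in AtrxdE2 against 544 in WT. It was the lowest of the 81 members in AtrxdE2+TMPyP4 over WT, at -0.46, and was 0.12 in AtrxdE2 over WT. With median centring, where the median of all genes was above 0, the ratio of Hdac6 in AtrxdE2+TMPyP4 was 0.042. With the local background that of Jmjd1b, at -0.61, lay below the -0.44 of Hdac6. In the authors' deposited table Cbx2 at -1.10 and Jmjd1b at -0.55 lay below the -0.49 of Hdac6. The difference of -0.59 stayed below 0 under each setting tried, between -0.66 and -0.34. Hdac3, the partner of Ncor1, lay just outside the size limit, with a difference of -0.49 and signals of 922 in AtrxdE2+TMPyP4 against 529.5 in WT, and 804 in AtrxdE2 against 463 in WT. Hdac2, a class I enzyme known as a negative regulator of memory genes in mouse hippocampus, had signals of 1949.9 in AtrxdE2+TMPyP4 against 668 in WT, and 1559 in AtrxdE2 against 1165 in WT. Its ratios were 0.32 in AtrxdE2+TMPyP4 and -0.21 in AtrxdE2, a difference of 0.53. The WT channels differed by -0.53 for Hdac2 between the arrays, and the mutant channels, compared directly, by -0.026. For Hdac2 the WT channels, not the mutant ones, thus lay apart. The class IIa enzyme Hdac5 was the lowest of the class in AtrxdE2 over WT, at -0.27, with signals of 2594 in AtrxdE2+TMPyP4 against 1248 in WT, and 2696 in AtrxdE2 against 2127 in WT.

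The sirtuins are NAD-dependent deacylases. Their median difference between the mutant groups was 0.081, with 4 of 7 above 0 (52.7% of all genes). It was -0.10 where the mutant channels were compared directly. Sirt7, which resides in the nucleolus, had signals of 432 in AtrxdE2+TMPyP4 against 256 in WT, and 402 in AtrxdE2 against 259 in WT. Its ratio was -0.34 in AtrxdE2+TMPyP4 and -0.0097 in AtrxdE2. Sirt5, a mitochondrial enzyme, was the highest of the class in AtrxdE2+TMPyP4 over WT, at 0.33, with signals of 293 in AtrxdE2+TMPyP4 against 99.5 in WT, and 252 in AtrxdE2 against 146 in WT. Sirt1, a nuclear enzyme, was the highest in AtrxdE2 over WT, at 0.24, with signals of 302 in AtrxdE2+TMPyP4 against 137 in WT, and 303 in AtrxdE2 against 158 in WT. Sirt4, another mitochondrial enzyme, was the highest in the difference, at 0.25, with signals of 118 in AtrxdE2+TMPyP4 against 49.0 in WT, and 98.7 in AtrxdE2 against 77.3 in WT. These sirtuins were thus spread on both sides of 0 with no member at 0.5. Sirt2, a cytoplasmic sirtuin known to be abundant in oligodendrocytes, had signals of 1764 in AtrxdE2+TMPyP4 against 907 in WT, and 2015 in AtrxdE2 against 1458 in WT, with ratios of -0.24 and -0.16. Median centring, under which the median of all genes lay above 0 on both arrays, gave Sirt2 ratios of 0.32 in AtrxdE2+TMPyP4 and 0.10 in AtrxdE2. The local background gave 0.51 and -0.63. Of the oligodendrocyte markers, 6 of 7 lay below 0 in AtrxdE2+TMPyP4, with a median of -0.61, and 7 of 7 in AtrxdE2, with a median of -0.55. With median centring 3 of 7 were below 0 in AtrxdE2+TMPyP4 and 6 of 7 in AtrxdE2. Their part in the value of Sirt2 was not tested.

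Among the 12 genes of the histone methyltransferase class, set by symbol and all measured, Setd1a had the lowest difference between the mutant groups. Setd1a is a trithorax-type enzyme that methylates histone H3 at promoters. It had signals of 156 in AtrxdE2+TMPyP4 against 90.7 in WT, and 306 in AtrxdE2 against 147 in WT. Its ratios were -0.20 in AtrxdE2+TMPyP4 and 0.34 in AtrxdE2, and the difference of -0.54 lay between -0.93 and -0.53 under the settings tried. Setd2, which methylates histone H3 in transcribed gene bodies, had ratios of -0.089 in AtrxdE2+TMPyP4 and 0.26 in AtrxdE2. Setd8 (Kmt5a), which adds a single methyl group to a lysine of histone H4, was the highest of the class in the difference, at 0.18, and the lowest in AtrxdE2 over WT, at -0.17, with signals of 283 in AtrxdE2+TMPyP4 against 129.8 in WT, and 201 in AtrxdE2 against 153 in WT. Suv420h1 (Kmt5b), which adds further methyl groups to the same lysine, was the highest in AtrxdE2+TMPyP4 over WT, at 0.23, with signals of 53.7 in AtrxdE2+TMPyP4 against 15.2 in WT, and 34.4 in AtrxdE2 against 18.7 in WT. The heterochromatin methyltransferases Suv39h1 and Suv39h2 had differences of -0.056 and 0.12. Suv39h1 was dim, with signals of 14.8 in AtrxdE2+TMPyP4 against 5.10 in WT, and 13.5 in AtrxdE2 against 4.68 in WT. For this gene the authors' deposited table lists 0.37 for AtrxdE2+TMPyP4 and 0.87 for AtrxdE2 over WT, where the offset gives 0.032 and 0.087. Over the 12 genes the median difference was -0.066, with 8 below 0 (47.3% of all genes), and it was 0.026 with the local background.

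The class of jumonji proteins and lysine demethylases was set by symbol and is not made up of demethylases only. It was below 0 for 11 of 14 measured genes in AtrxdE2+TMPyP4 over WT (47.2% of all genes), with a median of -0.076. Median centring, under which the median of all genes was itself above 0, placed 11 of 14 above 0. Jmjd1a (Kdm3a), Jmjd1b (Kdm3b) and Jmjd1c belong to 1 family, whose known activity is on the histone H3 mark of heterochromatin, and their values did not run together. Jmjd1c had signals of 121 in AtrxdE2+TMPyP4 against 39.7 in WT, and 68.5 in AtrxdE2 against 61.2 in WT, with ratios of 0.28 and -0.23 and a difference of 0.51. Jmjd1a had signals of 729 in AtrxdE2+TMPyP4 against 386 in WT, and 702 in AtrxdE2 against 371 in WT, with a difference of -0.48, just outside the size limit. Jmjd1b had signals of 398 in AtrxdE2+TMPyP4 against 259 in WT, and 259.8 in AtrxdE2 against 205 in WT, and was the lowest of the class in AtrxdE2+TMPyP4 over WT, at -0.45. Jmjd2a (Kdm4a) was the lowest of the 81 members in AtrxdE2 over WT, at -0.42, with signals of 180.2 in AtrxdE2+TMPyP4 against 88.2 in WT, and 99.4 in AtrxdE2 against 103 in WT. Jarid1b (Kdm5b), a demethylase of the histone H3 mark of active promoters, was at -0.099 in AtrxdE2+TMPyP4 and at 0.36 in AtrxdE2, the highest ratio of the class there. Its signals were 825 in AtrxdE2+TMPyP4 against 392 in WT, and 751 in AtrxdE2 against 363 in WT. The Polycomb cofactor Jarid2 had a difference of -0.39, and Jmjd3 (Kdm6b), which removes the Polycomb mark, one of -0.32. The Y-linked Jarid1d (Kdm5d) was above background in all 4 channels, and its ratios were 0.082 in AtrxdE2+TMPyP4 and 0.025 in AtrxdE2.

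Dnmt1, which copies CpG methylation at replication and is also expressed in neurons, was the lowest of the 81 members in AtrxdE2+TMPyP4 over AtrxdE2. It had signals of 422 in AtrxdE2+TMPyP4 against 237 in WT, and 591 in AtrxdE2 against 280 in WT. Its ratios were -0.27 in AtrxdE2+TMPyP4 and 0.37 in AtrxdE2, and the difference was -0.64. The ratio in AtrxdE2+TMPyP4 was above 0 with the local background, at 0.49. With median centring it was 0.13, where the median of all genes was above 0 too. The WT channels differed by only -0.041 for Dnmt1 between the arrays, and the mutant channels, compared directly, by -0.70. With the local background the difference was 0.19, and under the other settings tried it lay between -0.77 and -0.48. The de novo methyltransferases Dnmt3a and Dnmt3b had differences of -0.27 and -0.067, and Dnmt2 (Trdmt1), which methylates transfer RNA, one of -0.012. Dnmt3b had signals of 53.0 in AtrxdE2+TMPyP4 against 26.0 in WT, and 85.7 in AtrxdE2 against 54.2 in WT. Dnmt2, the lowest of the class in AtrxdE2 over WT at -0.067, had 83.3 in AtrxdE2+TMPyP4 against 43.8 in WT, and 69.9 in AtrxdE2 against 50.8 in WT. All 4 measured genes of this class were below 0 in the difference, where 47.3% of all genes were, and 3 of 4 were with the local background.

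The methyl-CpG binding domain class, set by symbol, had a median difference of 0.081, with 4 of 6 measured genes above 0 (52.7% of all genes). The median was -0.12 where the mutant channels were compared directly. The NuRD subunits Mbd2 and Mbd3 had ratios of 0.27 and 0.19 in AtrxdE2+TMPyP4, and of 0.12 and 0.012 in AtrxdE2. The signals of Mbd2 were 799 in AtrxdE2+TMPyP4 against 286 in WT, and 353 in AtrxdE2 against 205 in WT. Those of Mbd3, the highest of the class in the difference at 0.18, were 1823 in AtrxdE2+TMPyP4 against 684 in WT, and 1369 in AtrxdE2 against 868 in WT. For both genes the mutant channel exceeded WT on each array, as it did for the median gene. The raw log2 ratio of the median gene was 1.17 in AtrxdE2+TMPyP4 and 0.63 in AtrxdE2. Mbd6 was the lowest of the class on both arrays, at -0.15 in AtrxdE2+TMPyP4 and -0.27 in AtrxdE2, with signals of 403 in AtrxdE2+TMPyP4 against 207 in WT, and 316 in AtrxdE2 against 254 in WT. Mbd1 was the lowest in the difference, at -0.19, with signals of 354 in AtrxdE2+TMPyP4 against 183 in WT, and 583 in AtrxdE2 against 361 in WT. Among the chromobox genes, Cbx7, a Polycomb subunit, had signals of 1024 in AtrxdE2+TMPyP4 against 445 in WT, and 1100.2 in AtrxdE2 against 510 in WT. Its ratio was 0.0088 in AtrxdE2+TMPyP4 and 0.42 in AtrxdE2, the highest of the class there. Cbx1, which encodes the heterochromatin protein HP1 beta, was the lowest of the class in AtrxdE2 over WT, at -0.25, and the highest in the difference, at 0.19, with signals of 424 in AtrxdE2+TMPyP4 against 201 in WT, and 283 in AtrxdE2 against 225 in WT. The Polycomb subunit Cbx6 was the lowest in AtrxdE2+TMPyP4 over WT, at -0.18, with signals of 90.2 in AtrxdE2+TMPyP4 against 53.5 in WT, and 61.5 in AtrxdE2 against 49.3 in WT. Cbx8, another one, was the highest there, at 0.14, with signals of 199 in AtrxdE2+TMPyP4 against 81.1 in WT, and 129.7 in AtrxdE2 against 73.0 in WT. Cbx2, a Polycomb subunit too, was dim, with signals of 7.25 in AtrxdE2+TMPyP4 against 6.92 in WT, and 32.0 in AtrxdE2 against 14.0 in WT. The authors' deposited table lists -1.10 for Cbx2 in AtrxdE2+TMPyP4 and 0.54 in AtrxdE2 over WT, where the offset gives -0.14 and 0.15.

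**Figure D3:**
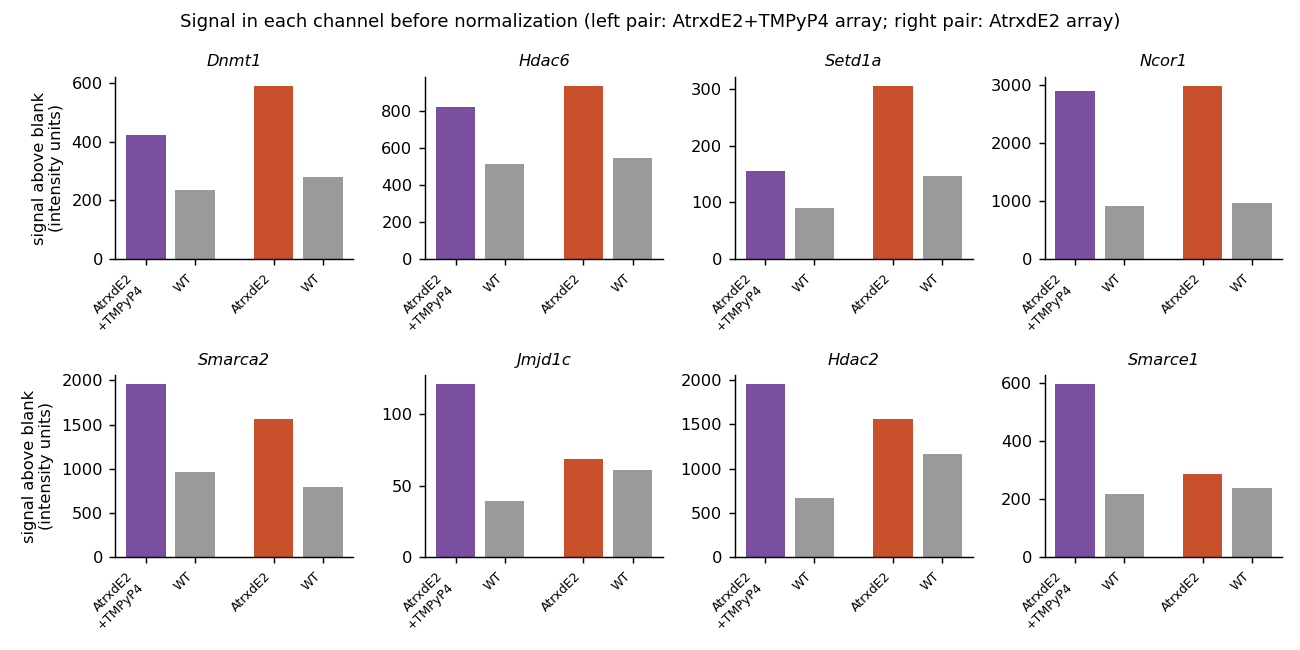
Signal above blank in intensity units (vertical axis, from 0, with its own scale in each panel) of the 8 members at least 0.5 apart between AtrxdE2+TMPyP4 and AtrxdE2. The left pair of bars is AtrxdE2+TMPyP4 and its WT channel, the right pair AtrxdE2 and its WT channel, each bar 1 channel. For Ncor1 and Smarca2 the mutant bar exceeds WT by about the same factor on both arrays, while for Hdac2, Smarce1 and Jmjd1c it does so more on the AtrxdE2+TMPyP4 array.

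The WT channels of both arrays gave the only view of the spread between measurements of 1 genotype. After quantile normalization they differed with an SD of 0.32 over the measured members and 0.29 over all genes. At 0.5 or more, 10 of 81 members differed between the WT channels, where 8.44% of all genes did. Smarcd1, a BAF subunit, differed most, by -1.06 in WT, with -1.15 in the mutant channels. Its signals were 162 in AtrxdE2+TMPyP4 against 92.6 in WT, and 380.1 in AtrxdE2 against 269 in WT, so both channels of 1 array were low together and the ratios stayed near each other at -0.19 and -0.12. Hdac10 was similar, at -0.82 in WT and -0.83 in the mutant channels, as were Smarcc2 (-0.74 and -1.01) and Mbd1 (-0.66 and -0.89). The other 6 were Hdac2, Hdac5, Chd3, Smarca2, Sirt3 and Mbd2. For Chd3 the bright probe differed by only 0.020 between the WT channels and the dim one by 1.04. Hdac2 and Smarca2 were among the 8 members that differed between the mutant groups, and the WT channels of the other 6 lay closer together.

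**Figure D4:**
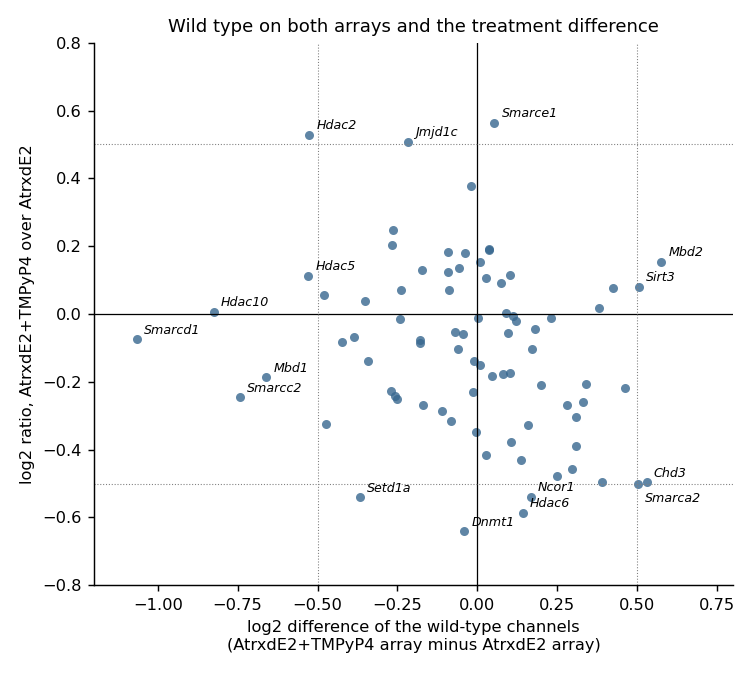
Log2 difference between AtrxdE2+TMPyP4 and AtrxdE2 (vertical axis) against the log2 difference of the WT channels, AtrxdE2+TMPyP4 array minus AtrxdE2 array (horizontal axis), for the 81 measured members. Dotted lines mark 0.5 in each direction. Dnmt1 lies at -0.64 with WT channels -0.041 apart, whereas Hdac2 lies at 0.53 with WT channels -0.53 apart.

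The authors' deposited table gave the same sign as the ratios above for 77 of 81 members in AtrxdE2+TMPyP4 over WT, for 77 in AtrxdE2 over WT and for 78 in the difference. In the difference, 25 members lay above 0 and 56 below 0 in the authors' deposited table, with a median of -0.14. The difference in the authors' deposited table was -0.76 for Dnmt1, -0.62 for Hdac6, -0.80 for Setd1a, 0.67 for Smarce1, 0.61 for Hdac2 and 0.93 for Jmjd1c. For Ncor1 and Smarca2 it was -0.49 and -0.48 there, short of 0.5.

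**Figure D5:**
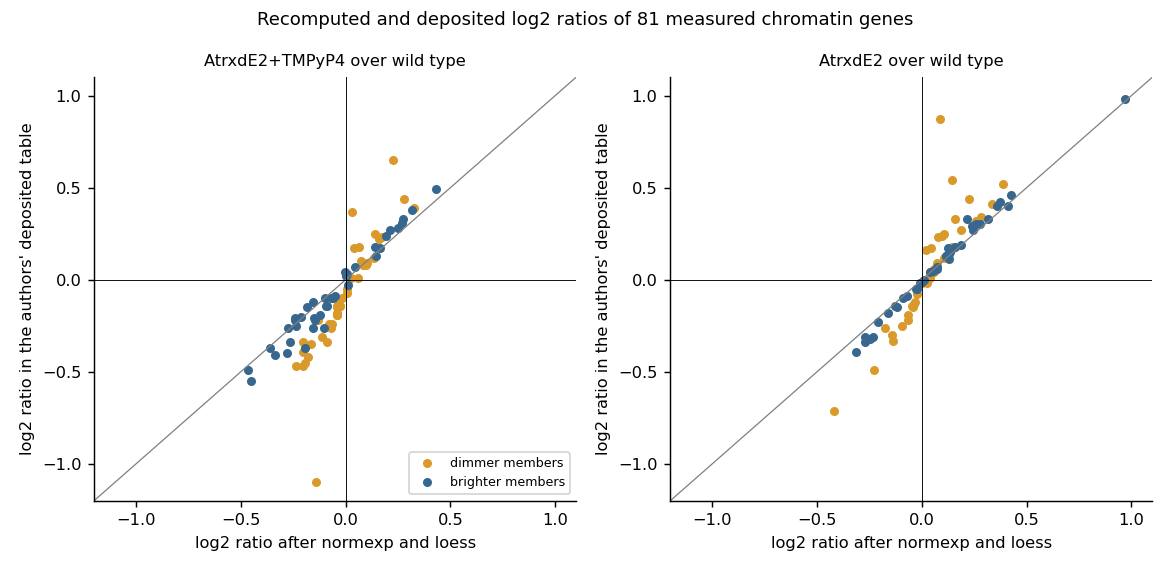
Log2 ratio in the authors' deposited table (vertical axis) against the log2 ratio after normexp and loess (horizontal axis) for the 81 measured members, with AtrxdE2+TMPyP4 over WT on the left and AtrxdE2 over WT on the right. The line marks equal values. Colours separate members below and above the members' median signal, and among those far from the line are Cbx2 at -1.10 in the left panel and Suv39h1 at 0.87 in the right one.

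Partners and relatives of these enzymes outside the symbol rule were listed as 122 further chromatin genes, of which 118 were measured. Their median ratios were 0.017 in AtrxdE2+TMPyP4 and 0.036 in AtrxdE2 over WT, and the median difference was -0.021. With median centring that difference was 0.058. In the difference, 3 were higher and 9 lower by 0.5 or more, where 3.61% of all genes were higher and 2.02% lower. Among the 9 were the trithorax methyltransferases Mll1 (Kmt2a) at -0.53 and Mll3 (Kmt2c) at -0.64, the methyltransferase Dot1l at -0.56, and the demethylases Utx (Kdm6a) at -0.59 and Fbxl11 (Kdm2a) at -0.53. The Polycomb proteins Mtf2 and Phc1 were at -0.55 and -0.53, the NuRD subunit Gatad2b at -0.55, and the BAF-associated factor Bcl11b at -0.65. With median centring Mll1, Mll3 and Dot1l were at -0.30, -0.44 and -0.43, and Gatad2b at -0.51. Fbxl11, Mtf2, Phc1 and Bcl11b were at -0.31, -0.27, -0.37 and -0.36 there. With the local background Mll3 was at 0.010. The WT channels of Fbxl11 differed by -0.59 between the arrays. The 3 higher ones were the arginine methyltransferase Prmt1 at 0.77, the BAF-associated factor Bcl11a at 0.52 and the Polycomb protein Bmi1 at 0.51. Median centring gave them 1.09, 0.85 and 0.65, and Bmi1 was at 0.29 with the local background. The WT channels of Bcl11a differed by -0.95 between the arrays, and the mutant channels, compared directly, by -0.50. For Bcl11a the direct comparison thus went the other way. Prmt1 had signals of 2872 in AtrxdE2+TMPyP4 against 1118 in WT, and 1248 in AtrxdE2 against 1265 in WT. Over WT, Yaf2, a Polycomb-associated protein, was at 0.77 in AtrxdE2+TMPyP4, the only one of the 118 at 0.5 or more there, and at 0.62 in AtrxdE2. In AtrxdE2 over WT, Gatad2b at 0.59, Mll5 (Kmt2e) at 0.51 and Prmt1 at -0.63 also reached that size. Of 18 measured Polycomb genes other than Cbx, 9 lay above 0 in AtrxdE2+TMPyP4 (52.8% of all genes) and 15 in AtrxdE2 over WT (49.3%). With median centring 16 and 17 did, where the median of all genes was itself above 0 on both arrays.

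Atrx itself had signals of 71.5 in AtrxdE2+TMPyP4 against 54.6 in WT, and 19.1 in AtrxdE2 against 47.4 in WT, with ratios of -0.36 in AtrxdE2+TMPyP4 and -0.68 in AtrxdE2. In the authors' deposited table these ratios were -0.78 and -1.96, by plain subtraction -0.72 and -1.94, and with the local background -0.31 and -0.37. Where its probe lies relative to the AtrxΔE2 change is not given in the sources used here. Markers of other tissue differed between the pools. The summed signal of 13 choroid plexus markers was 74980.3 in AtrxdE2+TMPyP4 against 2369 in WT, and 4710.2 in AtrxdE2 against 2728 in WT, and all 10 measured ones were above 0 in AtrxdE2+TMPyP4 over WT, with a median ratio of 1.43. That median was 3.47 by plain subtraction, 3.42 in the authors' deposited table and 0.87 with the local background. All 6 striatal markers lay below 0 in AtrxdE2+TMPyP4 over WT, with a median of -0.56, and all 8 meningeal markers lay above 0 in both groups, where median centring or the local background left at least 5 of 6 and 7 of 8. The 9 hippocampal neuron markers were above background in all 4 channels, with a median difference between the mutant groups of -0.29. It was 0.096 with the local background, -0.00059 with median centring and -0.19 in the authors' deposited table. The part of these marker differences in the members' values was not tested.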

How the data were processed

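Scanner tables of 2 arrays were deposited. Per the file headers, each of 27456 spots has a median intensity and a local background intensity in both channels. The authors' deposited table holds, per the labels, log2 ratios of mutant over WT, and the scanner values bear out that direction. From the intensities, normexp correction in limma 3.58.1 under R 4.3.3 used the mean of 2736 blank spots, trimmed by a share of 0.05, as background and an offset of 50, and loess then normalized each array. The blank mean was preferred to the local background after seeing the data. Probes of a gene were averaged, which concerns Chd3 and Chd8. Counting and ratios were done with pandas 2.3.3 and numpy 2.4.6 (Python 3.11.15). Known shifts were put into the Cy3 signal of some measured probes, which checked only that the normalization recovered their direction. The offset pulls the ratios of dim probes towards 0. With 1 array per group the number of arrays limits the precision, and there is no test. Members, classes and gene lists were chosen with earlier results of these data known. Values in every channel are given for members at least log2 0.5 from 0 in a comparison and for the highest and lowest of each class in each comparison, and other members are named with their ratios. Alternatives were plain subtraction, local background, median centring, the authors' deposited table, brighter probes only, dim probes included, the brightest probe of a gene, and the Cy3 channels compared directly after quantile normalization.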

Additional observations from a re-analysis of the deposited data

How the results depend on the processing

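No paired analysis was possible because each group has 1 array and no replicate. For AtrxdE2+TMPyP4 over WT, the median of -0.042 became -0.11 by plain subtraction, -0.0040 with the local background, 0.19 with median centring and -0.14 in the authors' deposited table. Members at 0.5 or more numbered 4, 6, 13 and 3 under these settings, where 11.5%, 8.98%, 22.0% and 12.1% of all genes reached that size, against 0. Members past 2-fold numbered 1, 2, 1 and 1, where 1.9%, 2.47%, 1.05% and 2.02% of all genes were past it, against 0. For AtrxdE2 over WT, the members' median of 0.060 became 0.017 with the local background, 0.17 with median centring and 0.12 for brighter probes. Members at 0.5 or more numbered 5 by plain subtraction, 3 with the local background, 9 with median centring and 5 in the authors' deposited table, where 12.8%, 3.88%, 5.56% and 13.5% of all genes reached that size, against 1. Members past 2-fold numbered 0, 0, 1 and 0 in the same order, where 1.5%, 0.257%, 0.103% and 1.56% of all genes were past it, against 0. For AtrxdE2+TMPyP4 over AtrxdE2, the median of -0.081 became -0.17 by plain subtraction, -0.0077 with median centring, -0.14 in the authors' deposited table and -0.15 for brighter probes. With the local background that median lay nearer 0 than -0.081. Members at 0.5 or more numbered 21 by plain subtraction, 13 with the local background, 5 with median centring, 20 in the authors' deposited table and 15 with the Cy3 channels compared directly, where 22.5%, 14.1%, 12.4%, 22.8% and 15.5% of all genes reached that size, against 8. Members past 2-fold numbered 1, 2, 0, 1 and 2, where 4.66%, 3.54%, 0.836%, 4.59% and 2.09% of all genes were past it, against 0. With the local background the difference turned to 0.19 for Dnmt1, 0.76 for Ncor1 and 0.35 for Smarca2, and with the Cy3 channels that of Hdac2 turned to -0.026. The cause was not tested. Each group is 1 pool on 1 array with no dye swap, so no value here has a replicate check.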

Other observations

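Longer members tended to have higher ratios in AtrxdE2 over WT. Over the 81 measured members, the Spearman correlation between the length of the RefSeq locus and the ratio was 0.093 in AtrxdE2+TMPyP4 over WT and 0.31 in AtrxdE2 over WT, and it was -0.19 for the difference between the mutant groups. Over 13584 named genes with a length it was 0.023, 0.087 and -0.060 in the same order. The members' loci had a median length of 39.5 kb, against 22.6 kb for all these genes. The points share the arrays, the probe signal and the normalization, so these are descriptions without a test.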
